A study of Mus musculus with 14 samples.

Results

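Cultured, antigen-activated OT-1 splenocytes were compared with CD8+ T cells taken directly from spleen, using 7 of the 14 RNA-sequencing libraries of a mouse study. The 7 libraries were chosen by their labels, which name 4 vehicle cultures and 3 spleen samples. For the cultures, whole splenocytes of OT-1 mice received 1 µg/mL of the ovalbumin peptide that the OT-1 receptor recognises, with 200 U/mL recombinant human interleukin-2 and DMSO as the vehicle. They were activated for 3 days, then split and expanded for 4 days, 7 days in all. The spleen samples came from C57BL/6 mice that carried subcutaneous MCA205 fibrosarcomas for 14 days, and their CD8+ cells were enriched and then sorted by flow cytometry. The other 7 libraries of the study are 4 cultures with ND-646, which inhibits acetyl-CoA carboxylase, and 3 samples of tumour-infiltrating CD8+ cells.

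The labels call all 7 samples wild-type CD8+ T cells, but for the cultures the protocols name no sort. Culture, antigen, interleukin-2, mouse line, a tumour in the host and the sort all differ between the groups, so their parts in any difference cannot be told apart. The codes in the sample titles differ too, and the labels do not say what they stand for. A batch that goes with these codes cannot be told apart from the rest either. The labels do not state age, sex or whether replicates are separate mice or cultures, and p-values measure only the spread between these libraries. For that reason a gene was called higher or lower in culture only when its adjusted p in the quasi-likelihood test of edgeR was under 0.05 and the groups differed at least 4-fold. All adjusted p-values below are from that test, over 14685 genes.

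A naive CD8+ T cell circulates between blood, spleen and lymph nodes in a resting state kept by transcription factors such as TCF-1, LEF-1, FOXO1 and KLF2. Peptide recognition and interleukin-2 drive it to divide, to raise nutrient uptake and lipid synthesis, and to fill cytotoxic granules with perforin and granzymes. Homing molecules of the resting state, such as CCR7 and the S1P receptor, are normally switched off along the way. CD8+ cells of a mouse spleen are a mixture in which naive cells usually dominate, with some memory and effector cells.

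The vehicle libraries held 25.2 ± 2.602 M counts (M, 1e+06) and the spleen libraries 20.2 ± 0.508 M (SD, n = 4 and 3). Replicates were close, with a median standard error of 0.071 for a log2 fold change, and every replicate pair differed by more than sampling noise. T cell receptor segments checked the labels. OT-1 cells carry one rearranged receptor, built from a Trav14 family alpha chain segment and a Trbv12 family beta chain segment. Trbv12-1 held 99.5% ± 0.0377 of all Trbv counts in the vehicle libraries (SD, n = 4) and 7.08%, 6.49% and 5.64% in the spleen libraries. The Trav14 family held 93.1%, 94.2%, 92.7% and 94.2% of Trav counts in culture and 14.5%, 16.3% and 16.0% in spleen. The cultures were thus close to monoclonal in their receptor mRNA, while 18 or 19 Trbv segments reached 1% in each spleen library. Both differences had an exact two-sided permutation p of 0.0571, the smallest that 4 against 3 libraries allow.

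**Figure D1:**
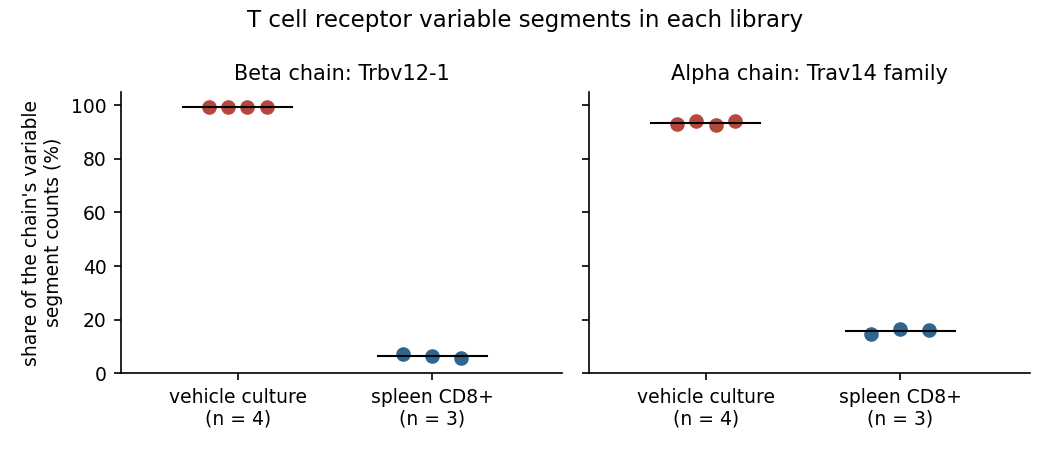
Share of T cell receptor variable segment counts held by the 2 OT-1 segments in each library (points; the line is the group mean; y axis in percent from 0). The 4 vehicle cultures sit near 99.5% for Trbv12-1 and 93.5% for the Trav14 family, and the 3 spleen libraries near 6.40% and 15.6%.

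Of the 14685 genes tested, 2922 (19.9%) were called, 1902 (13.0%) higher and 1020 (6.95%) lower in culture. These shares are the background for every list below, and the median log2 fold change of all genes was 0.015. By adjusted p alone 83.6% of genes differed, so the fold carries the call. At 32-fold or more, 502 genes were higher and 252 lower. Of the genes called higher, 168 had no count in any spleen library, and 72 of those called lower had none in any vehicle library. Scaling the libraries by 18 T cell identity genes instead of all genes moved the median of all genes by 0.63 on the log2 scale and gave 2542 higher and 686 lower, a share of 78.7% higher against 65.1%. Level here means counts scaled to 1e+06 per library (CPM), a relative measure in which fewer cells of a type and less RNA per cell cannot be told apart.

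**Figure D2:**
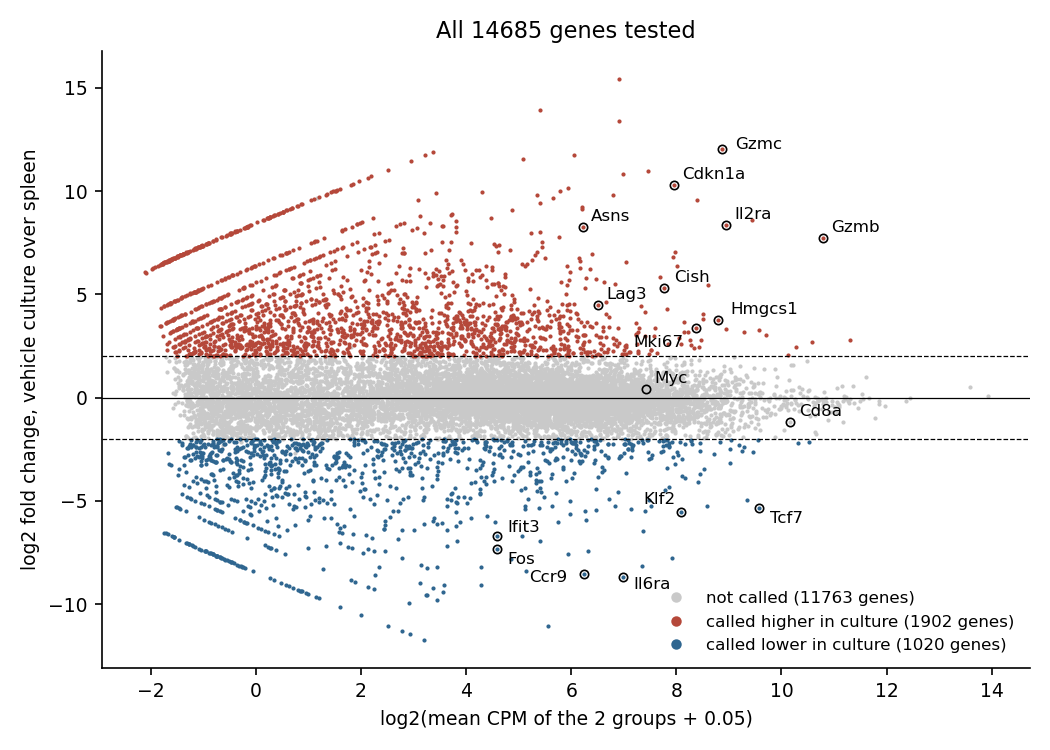
Each point is 1 of 14685 genes (x axis, log2 of the mean of the 2 groups' CPM; y axis, log2 fold change of vehicle culture over spleen; dashed lines, 4-fold). Called genes are coloured, 1902 above and 1020 below, and the circled genes are described in the text, among them Myc and Cd8a inside the lines.

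The T cell identity of both groups was clear, though its mRNAs took a smaller share in culture. The 18 genes of that list summed to between 6940 and 7253 CPM in culture and between 10880 and 11080 CPM in spleen. Cd8a, which encodes the CD8 alpha chain, stood at 714, 762, 653 and 679.7 CPM in the vehicle libraries and 1594, 1589 and 1620 CPM in the spleen libraries. Its log2 fold change of -1.19 ± 0.042 (SE; adjusted p = 1.47e-12) missed the 4-fold minimum, although the groups did not overlap. The groups did not overlap for 82.7% of all genes tested. Cd8b1, the beta chain of the CD8 coreceptor, was at 177, 176, 176 and 178 CPM in culture and 1039, 1055 and 1038 CPM in spleen, and fell by 2.56 ± 0.027 (SE; adjusted p = 1.32e-26) on the log2 scale. The coreceptor's 2 chains thus moved unequally in these tables. Cd5 and Cd6, surface receptors that restrain T cell receptor signals, also fell, from 231 ± 7.78 and 368 ± 5.45 CPM in spleen to 49.3 ± 2.26 and 62.3 ± 2.77 CPM in culture (SD). These 3 were the only members called of 18, and none was called when the list itself set the scale, which centres the list by construction. The receptor complex genes Cd3g, Cd3d and Cd3e had log2 fold changes of 0.50, -0.29 and -0.75, none of them called.

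The resting programme was lower in culture. Of 15 transcription factors of naive and memory T cells, 9 fell and 0 rose, with a median log2 fold change of -2.20, and scaling by T cell identity genes left 4 of the 9. Tcf7, which encodes TCF-1, was at 33.5, 29.6, 44.3 and 39.9 CPM in culture and 1420, 1513 and 1543 CPM in spleen. It fell by 5.35 ± 0.14 (SE; adjusted p = 3.52e-07), and the groups lay far apart. Klf2, the factor that switches on S1pr1, was at 10.4, 8.41, 14.00 and 13.6 CPM against 505, 545 and 544 CPM and fell by 5.54 ± 0.15 (SE; adjusted p = 2.99e-07). Lef1, the partner of TCF-1, fell less, by 2.89 ± 0.056 (SE; adjusted p = 3.49e-13), from 431 ± 22.5 to 58.2 ± 4.48 CPM (SD). Klf3, a relative of Klf2, fell by 4.94 and Eomes, a T-box factor of memory cells, by 2.20. Bach2, a repressor of effector genes, had a log2 fold change of -1.82 ± 0.051 (SE; adjusted p = 3.54e-16), just short of 4-fold.

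Homing genes followed the same direction, with 10 of 18 lower, 0 higher and a median of -2.87. All 10 were also called with scaling by T cell identity genes. Ccr7, the lymph node chemokine receptor, was at 37.7, 38.5, 41.5 and 39.8 CPM in culture and 395, 425 and 421 CPM in spleen. S1pr1, the receptor used to leave lymph nodes, was at 56.95, 53.9, 72.5 and 64.01 CPM against 481, 489 and 495 CPM. The log2 fold changes of Ccr7 and S1pr1 were -3.39 and -2.99. Some members were almost absent from culture. Il6ra, the interleukin-6 receptor, was at 0.556, 0.881, 0.583 and 0.413 CPM in culture against 255, 257 and 248 CPM in spleen, 404-fold lower. Ccr9, a gut-homing chemokine receptor, was at 0.476, 0.441, 0.375 and 0.289 CPM against 147, 156 and 148 CPM, 372-fold lower. Itgae, the CD103 integrin chain, fell by 7.41 ± 0.062 (SE; adjusted p = 2.77e-28). Il7r, the receptor for the survival cytokine interleukin-7, had a log2 fold change of -1.68 ± 0.033 (SE; adjusted p = 4.61e-22) and was not called.

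Of 16 quiescence regulators, 3 were lower and 1 higher. Btg1, an antiproliferative factor, stood at 162, 157, 179 and 172 CPM in culture and 712, 757 and 761 CPM in spleen, and Dapl1 fell from 82.6 ± 5.33 to 3.500 ± 0.379 CPM (SD). Peli1, a ubiquitin ligase, fell by 2.11 ± 0.037 (SE; adjusted p = 9.19e-23). The CDK inhibitor Cdkn1b, known as p27, had a log2 fold change of -0.89, within the 4-fold limits. The list median was -1.06, and with scaling by T cell identity genes Btg1 and Peli1 were no longer called.

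**Figure D3:**
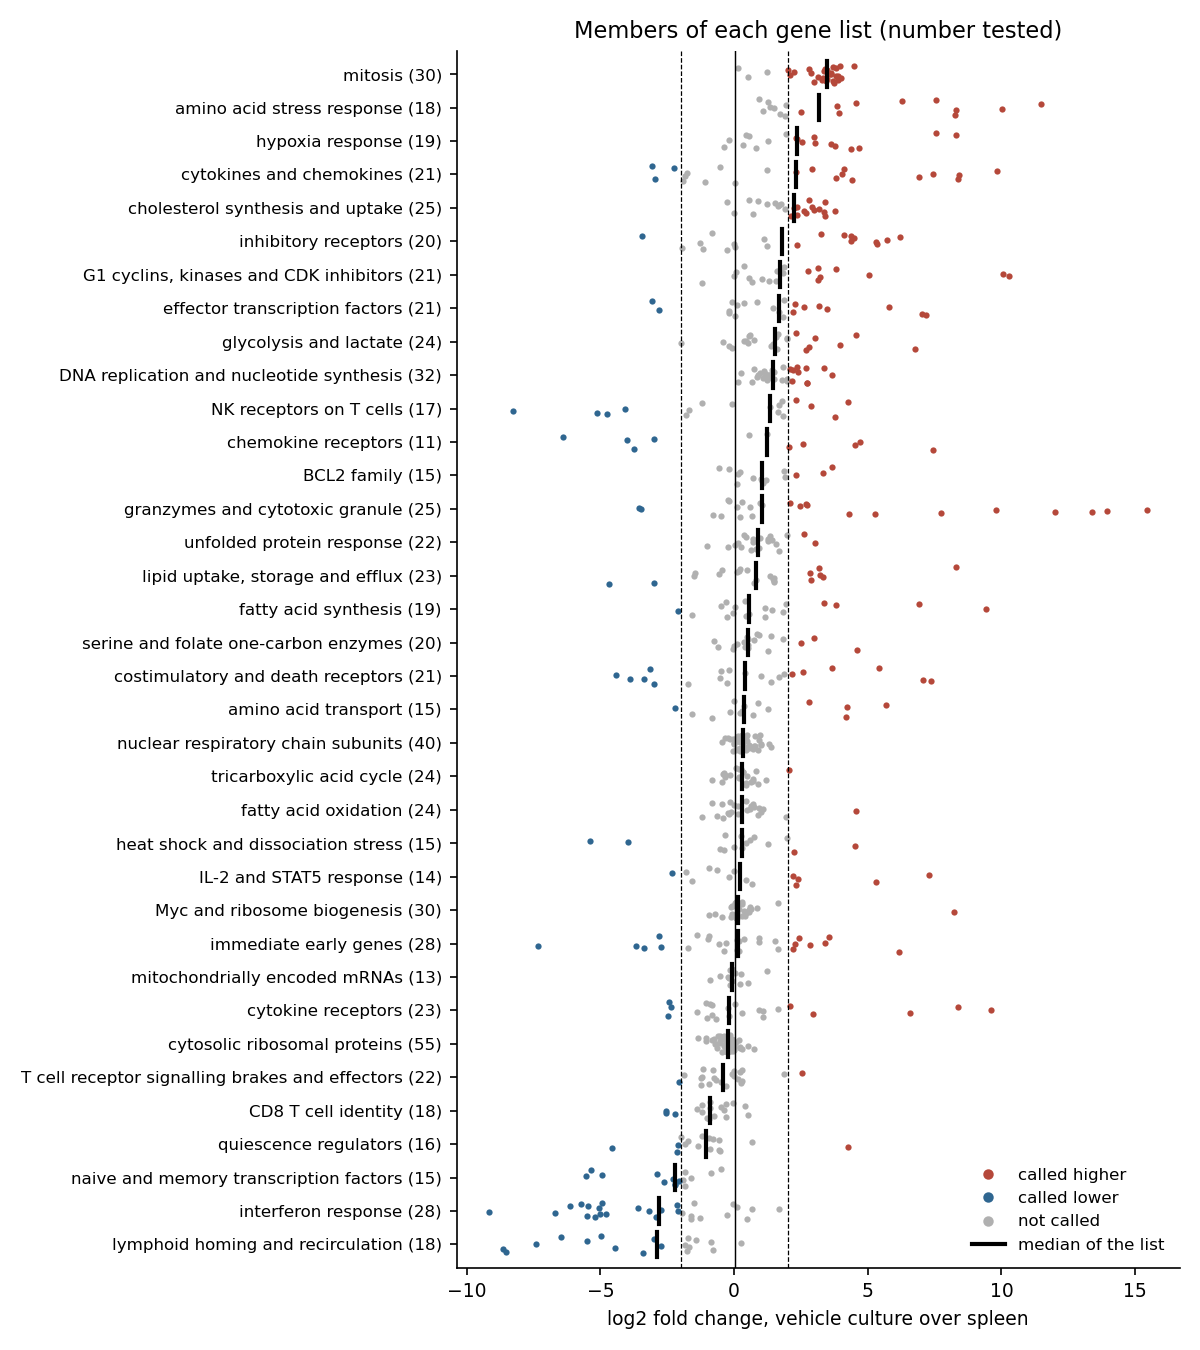
Log2 fold change of vehicle culture over spleen (x axis) for every tested member of 36 gene lists (rows, with the number tested), coloured by call, with the list median as a thick bar, the median of all genes as a solid line and 4-fold as dashed lines. Mitosis, amino acid stress and hypoxia lists lie to the right, homing, interferon response and naive factors to the left, and ribosomal protein and respiratory chain genes stay inside the dashed lines.

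Receptors and targets of interleukin-2, the cytokine added to the cultures, were among the genes higher there. Il2ra, the alpha chain that raises the receptor's affinity, stood at 988, 996, 965 and 961 CPM in culture and 3.75, 2.85 and 2.27 CPM in spleen, a log2 fold change of 8.36 ± 0.070 (SE; adjusted p = 2.30e-23). Il2rb, the signalling beta chain, was at 1811, 1896, 1682 and 1798 CPM against 433, 432 and 416 CPM and rose by 2.07 ± 0.036 (SE; adjusted p = 8.14e-22). The shared gamma chain gene Il2rg had a log2 fold change of -0.82 and was not called. Among STAT5 targets, Cish, a feedback inhibitor of the receptor, was at 443, 477, 364 and 407 CPM against 10.3, 11.4 and 10.4 CPM. Socs2, another feedback inhibitor, rose by 7.30 ± 0.11 (SE; adjusted p = 2.28e-24) and the kinase gene Pim1 by 2.40 ± 0.050 (SE; adjusted p = 4.52e-15). Socs3, a brake on interleukin-6 family receptors, fell by 2.32 ± 0.099 (SE; adjusted p = 3.89e-07), a call that ended with scaling by T cell identity genes. In all, 5 of 14 genes of the interleukin-2 and STAT5 list were higher and 1 lower, with a median of 0.22.

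The interleukin-12 receptor genes rose as well, Il12rb2 from 2.73 ± 0.2900 to 259 ± 5.91 CPM and Il12rb1 from 21.7 ± 2.08 to 167 ± 7.72 CPM (SD). Of 23 cytokine receptor genes, 5 were higher and 3 lower. The lower ones, Ifngr2, Tgfbr3 and Il27ra, encode receptor chains for interferon gamma, TGF-beta and interleukin-27 and had log2 fold changes of -2.46, -2.45 and -2.35. The median of the cytokine receptor list was -0.19, turning to 0.44 with scaling by T cell identity genes, under which these 3 were no longer called.

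Effector transcription factors were split, with 8 of 21 higher, 2 lower and a median of 1.66. Bhlhe40, a basic helix-loop-helix factor of activated T cells, was at 517, 531, 461 and 487 CPM in culture and 5.38, 2.23 and 3.72 CPM in spleen and rose by 7.04 ± 0.18 (SE; adjusted p = 2.29e-07). Batf3, a basic leucine zipper factor, rose by 7.16 ± 0.13 (SE; adjusted p = 2.01e-22) and Nfil3, another of that class, by 5.81 ± 0.094 (SE; adjusted p = 9.31e-17). Prdm1, which encodes BLIMP-1, rose from 3.76 ± 0.595 to 23.2 ± 2.11 CPM (SD). Tox, a factor of chronically stimulated and developing T cells, was at 7.46, 6.58, 8.67 and 7.84 CPM in culture against 60.9, 66.9 and 66.4 CPM in spleen and fell by 3.09 ± 0.070 (SE; adjusted p = 6.40e-21). Ikzf3, a zinc finger factor of the Ikaros family, fell by 2.80 ± 0.039 (SE; adjusted p = 1.15e-24). Tbx21, which encodes T-bet, was at 63.4 ± 4.29 CPM against 35.3 ± 3.33 CPM (SD), a log2 fold change of 0.85 ± 0.065 (SE; adjusted p = 4.87e-09) that was not called. Irf8, a factor of effector CD8+ cells, was not called either, with 1.44 ± 0.077 (SE; adjusted p = 1.40e-09).

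Granzyme genes were 4 of the 8 that the naming rule took for the highest fitted log2 fold changes, among genes of at least 50 CPM in the higher group. Gzmb, the main granzyme of killer lymphocytes, was at 3565, 3868, 3333 and 3384 CPM in culture and 27.2, 6.54 and 16.02 CPM in spleen, a log2 fold change of 7.73 ± 0.42 (SE; adjusted p = 1.13e-05). The spleen libraries differed among themselves, with library 1 the highest and library 2 the lowest. Gzmc was at 949.7, 1018, 877 and 913 CPM against 0.247, 0.104 and 0.3100 CPM. Its neighbours Gzmd, Gzme, Gzmf and Gzmg averaged 240.1, 84.8, 80.8 and 241 CPM in culture. Gzme and Gzmg had no count in any spleen library, so with 3 counts over the spleen group as the floor they were at least 1664-fold and 4724-fold higher. These paralogs resemble one another, so how reads divide between them is not certain. Granzyme genes together took 0.572%, 0.609%, 0.539% and 0.547% of all counts in culture and 0.00767%, 0.00259% and 0.00561% in spleen.

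Other granzymes did not all move that way. Gzma was at 432, 447, 419 and 416 CPM in culture and 32.9, 7.73 and 24.9 CPM in spleen and rose by 4.29 ± 0.37 (SE; adjusted p = 1.10e-04). Gzmk, a granzyme of memory cells, was at 0.238, 0.271, 0.4999 and 0.289 CPM in culture and 5.34, 1.297 and 4.29 CPM in spleen and fell by 3.49 ± 0.55 (SE; adjusted p = 4.21e-04). Gzmm fell by 3.55 ± 0.14 (SE; adjusted p = 2.12e-16), from 12.1 ± 1.004 to 1.02 ± 0.1797 CPM (SD). Prf1, the pore-forming perforin, was at 613, 653, 511 and 549 CPM against 98.1, 109 and 110.1 CPM and rose by 2.46 ± 0.11 (SE; adjusted p = 3.67e-06). Of 25 granule genes, 12 were higher and 2 lower, and the median was 1.03. The granule protein genes Nkg7, Lamp1 and Cst7 had log2 fold changes of 0.61, 0.10 and 0.22, so most of the shift lay in granzymes, perforin, Fasl (5.28) and the protective serpins Serpinb9 (2.67) and Serpinb6b (2.73).

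**Figure D4:**
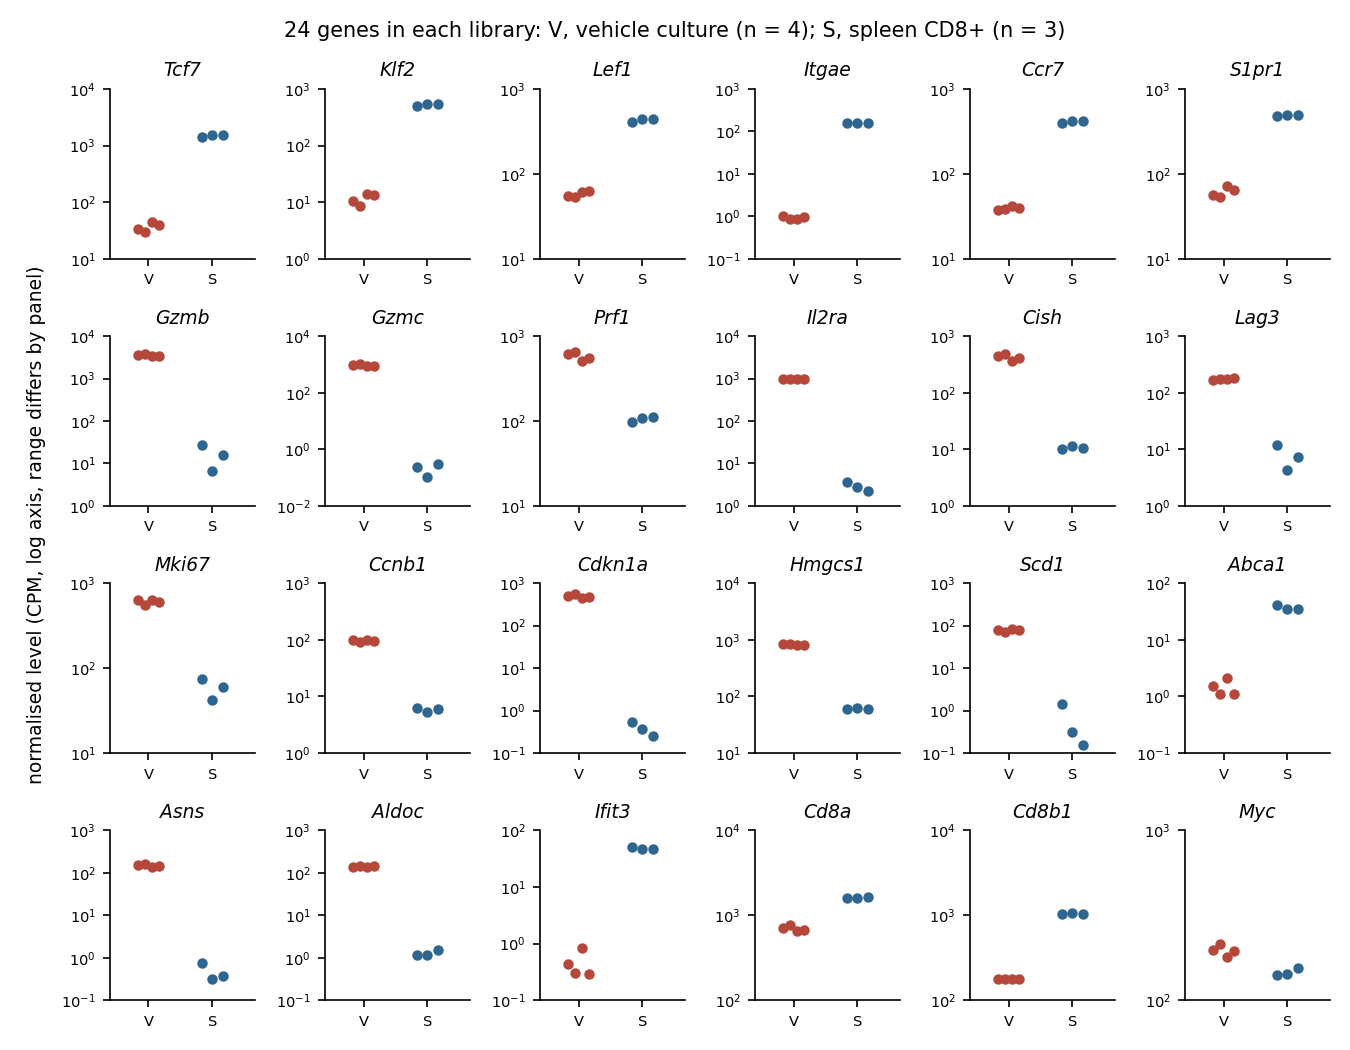
Normalised level (CPM, log axes whose range differs by panel) of 24 genes in each of the 4 vehicle (V) and 3 spleen (S) libraries, 1 point per library. The groups do not overlap in any panel, which also holds for 82.7% of all genes tested. The spleen libraries spread more than the cultures for Gzmb, Lag3, Mki67, Cdkn1a and Scd1.

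Among cytokines and chemokines, 11 of 21 tested were higher and 3 lower, with a median of 2.32. Spp1, which encodes osteopontin, was at 229, 224, 217 and 218 CPM in culture and 0.642, 0 and 0.0517 CPM in spleen. Lif, an interleukin-6 family cytokine, rose by 7.46 ± 0.23 (SE; adjusted p = 5.91e-11) and Csf1, the macrophage growth factor, by 4.41 ± 0.19 (SE; adjusted p = 5.21e-10). Ifng, the type II interferon, was modest at 15.6, 16.3, 11.5 and 12.4 CPM against 1.24, 0.623 and 1.09 CPM, a log2 fold change of 3.82 ± 0.21 (SE; adjusted p = 5.54e-10). Xcl1, the chemokine for cross-presenting dendritic cells, went the other way, at 1.03, 1.42, 1.46 and 1.403 CPM in culture and 11.1, 10.2 and 12.2 CPM in spleen. Tnfsf14, which encodes LIGHT, fell by 2.25 ± 0.12 (SE; adjusted p = 6.81e-14). The chemokine gene Ccl5 had a log2 fold change of -1.90 and was not called, nor were Ccl3 (0.02) and Ccl4 (-1.10).

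Inhibitory receptors that mark activated and exhausted T cells were higher in 10 of 20 cases and lower in 1. Pdcd1, which encodes PD-1, was at 87.6, 93.6, 96.9 and 91.6 CPM in culture and 5.38, 3.995 and 3.98 CPM in spleen and rose by 4.37 ± 0.074 (SE; adjusted p = 1.20e-22). Lag3, an MHC class II receptor, was at 169, 175, 171 and 181 CPM against 11.7, 4.26 and 7.29 CPM and rose by 4.48 ± 0.23 (SE; adjusted p = 7.66e-06). Havcr2, which encodes TIM-3, rose by 5.72 ± 0.15 (SE; adjusted p = 3.36e-09) and Ctla4, the competitor of CD28, by 5.31 ± 0.12 (SE; adjusted p = 3.53e-11). Nt5e, the CD73 ectoenzyme that makes adenosine, fell by 3.46 ± 0.073 (SE; adjusted p = 1.89e-21). Tox fell in the same libraries, as given above, so the receptors and this factor moved in opposite directions.

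Costimulatory receptor genes moved both ways, 6 of 21 higher and 5 lower. Tnfrsf9, which encodes 4-1BB, rose from 17.6 ± 1.298 to 758 ± 86.00 CPM (SD) and Tnfrsf4, which encodes OX40, by 3.65 ± 0.12 (SE; adjusted p = 7.98e-12). Cd80, a ligand of CD28 and CTLA-4, rose by 7.07 ± 0.100 (SE; adjusted p = 1.42e-24), while Cd86, the other ligand, fell by 3.91 ± 0.12 (SE; adjusted p = 1.39e-18). Slamf6, a receptor of stem-like T cells, fell by 4.42 ± 0.065 (SE; adjusted p = 7.49e-19). The chemokine receptor Cxcr3 fell from 80.4 ± 3.16 to 10.1 ± 2.07 CPM and Cxcr5 from 24.5 ± 2.72 to 0.288 ± 0.126 CPM (SD), while Ccr4 rose by 4.52 on the log2 scale. Of 17 NK receptor genes, 4 rose, among them Klrc1 (2.89), which encodes NKG2A, and 4 of the Klra family fell, whose members share sequence.

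Immediate early genes, which respond within minutes to receptor signals or handling, showed no common direction, with 7 of 28 higher and 5 lower. Fos was at 0.318, 0.407, 0.167 and 0.248 CPM in culture and 13.98, 38.6 and 91.2 CPM in spleen, a log2 fold change of -7.33 ± 1.21 (SE; adjusted p = 0.00212), and the spleen libraries differed several-fold among themselves. Egr2 and Zfp36, a transcription factor and an mRNA decay factor, fell by 3.38 and 2.81. Atf3, a stress-induced factor, rose by 6.15 ± 0.18 (SE; adjusted p = 5.12e-18) and Ier3 by 3.38 ± 0.095 (SE; adjusted p = 2.01e-18). The heat shock genes Hspa1a and Hspa1b, near-identical copies, were higher in spleen. Hspa1b was at 6.87, 7.12, 6.33 and 5.57 CPM in culture and 126, 312 and 387 CPM in spleen. For both Fos and Hspa1b spleen library 1 was the lowest and library 3 the highest, and the part of cell handling in these differences was not tested. Of 22 genes of T cell receptor signalling, 1 was higher, the feedback inhibitor Spry2 (2.55), and 1 lower, Dgka (-2.07), a kinase that removes diacylglycerol.

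Cell division genes were higher in culture, those of mitosis by more than those of DNA replication. Of 30 mitosis genes, 27 rose and 0 fell, with a median log2 fold change of 3.46. The list summed to between 3601 and 3981 CPM in culture and between 489.9 and 652 CPM in spleen. Ube2c, which works with the anaphase-promoting complex, was at 112, 116, 116 and 118 CPM in culture and 6.92, 3.11 and 5.43 CPM in spleen and rose by 4.48 ± 0.16 (SE; adjusted p = 2.17e-07). Ccnb1, the mitotic cyclin B1, was at 98.5, 90.3, 99.8 and 95.4 CPM against 6.37, 5.34 and 6.098 CPM and rose by 4.01 ± 0.064 (SE; adjusted p = 1.20e-23). Mki67, which encodes the proliferation marker Ki-67, was at 629.6, 554, 639 and 594 CPM against 73.7, 42.2 and 59.6 CPM and rose by 3.37 ± 0.20 (SE; adjusted p = 1.52e-05). The 3 members that were not called, Kif23, Cdc25b and Racgap1, had log2 fold changes of 1.22, 0.53 and 0.16.

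Mitotic genes are known to share a promoter design in which a CHR element, TTTGAA, and CCAAT boxes lie just upstream of the start. To show that design in members that moved together, the 150 bases before the start are given for 4 of the 8 mitosis promoters that held both motifs within 250 bases. These 4 are examples. Kif11 and Prc1, which also held both motifs and rose by more than Mki67, are not shown. The sequences are from RefSeq for GRCm38.p6, read 5′ to 3′ on the gene's strand, and capitals mark TTTGAA and CCAAT on either strand.
Ube2c (chr2:164769779-164769928, plus strand): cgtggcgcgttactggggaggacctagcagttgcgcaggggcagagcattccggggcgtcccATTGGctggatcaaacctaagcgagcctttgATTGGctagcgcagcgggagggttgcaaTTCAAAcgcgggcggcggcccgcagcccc
Cdk1 (chr10:69352913-69353062, minus strand): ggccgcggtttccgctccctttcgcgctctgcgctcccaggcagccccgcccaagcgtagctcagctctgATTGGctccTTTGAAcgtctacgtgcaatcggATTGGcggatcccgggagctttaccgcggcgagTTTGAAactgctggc
Top2a (chr11:99024190-99024339, minus strand): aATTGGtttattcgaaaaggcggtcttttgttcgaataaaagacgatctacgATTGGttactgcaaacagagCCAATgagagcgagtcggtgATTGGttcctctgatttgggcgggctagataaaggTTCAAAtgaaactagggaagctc
Mki67 (chr7:135716380-135716529, minus strand): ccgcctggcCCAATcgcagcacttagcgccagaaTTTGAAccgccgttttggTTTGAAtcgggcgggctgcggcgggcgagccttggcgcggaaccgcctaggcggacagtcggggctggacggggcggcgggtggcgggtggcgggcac
Cdk1, the kinase that starts mitosis, rose by 3.83 and Top2a, the topoisomerase that untangles chromosomes, by 3.79 on the log2 scale. Of 25 promoters matched for 24 mitosis genes, 32% held TTTGAA and 84% held CCAAT, searched on both strands and independently, so that matches may overlap. The shares among all 32851 promoters of that length were 16% and 33.8%, and among promoters of the genes tested 11.2% and 35.3%. Promoters of genes called higher held them in 12.9% and 35.4%. A match describes letters in this window and is no evidence of binding.

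Of 32 genes of DNA replication and nucleotide synthesis, 10 rose and 0 fell, with a median of 1.45. The 32 all passed the adjusted p in the upward direction, and with scaling by T cell identity genes 18 were called. Orc1, a subunit of the origin recognition complex, rose by 3.68 ± 0.15 (SE; adjusted p = 2.18e-15) and Rrm2, the ribonucleotide reductase subunit, by 3.37 ± 0.14 (SE; adjusted p = 2.59e-06). Mcm2, part of the replicative helicase, was at 199, 202, 186 and 198 CPM in culture and 95.2, 92.6 and 94.6 CPM in spleen, a log2 fold change of 1.06 ± 0.035 (SE; adjusted p = 7.20e-18) below the 4-fold minimum. The E2F motif TTTNNCGC, searched on both strands, was in 28.1% of 32 replication promoters and 4.28% of all promoters. Its share was 6.73% among promoters of the genes tested, 5.15% among those of genes called higher and 12.2% among ribosomal protein promoters.

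Both drivers and brakes of G1 rose. Cdk6, a kinase that opens the way to S phase, rose by 3.20 ± 0.040 (SE; adjusted p = 1.54e-25). The E2F factor genes E2f7 and E2f8, counted among the brakes, rose by 3.81 and 3.15. Cdkn1a, which encodes the CDK inhibitor p21, was at 513, 557, 439 and 479 CPM in culture and 0.543, 0.363 and 0.258 CPM in spleen. That was a log2 fold change of 10.29 ± 0.21 (SE; adjusted p = 2.72e-08), one of the 8 highest under the naming rule. Cdkn2a, the locus of p16 and p19, was scarce but rose, at 4.49, 5.36, 4.33 and 4.21 CPM against 0.346, 0.0519 and 0 CPM. Of 21 genes in the list, 8 rose, 0 fell and the median was 1.70, and 13 were called with scaling by T cell identity genes. In the BCL2 family, 3 of 15 rose, the protective Bcl2l1 (2.32) and Bcl2l2 (3.33) and the killer Pmaip1 (3.67), also called NOXA.

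Growth genes showed no comparable difference. Myc, the growth factor-induced transcription factor, was at 198, 213, 180.4 and 195 CPM in culture and 140.2, 143 and 154 CPM in spleen, a log2 fold change of 0.43 ± 0.052 (SE; adjusted p = 5.16e-06). Ncl, the nucleolar protein nucleolin, had 0.57 ± 0.029 (SE; adjusted p = 1.42e-14). Of 30 genes of the Myc and ribosome biogenesis list, 1 was called, Mycn, a Myc relative, higher at 16.7 ± 2.52 CPM in culture against 0.0494 ± 0.0856 CPM in spleen (SD). None of 55 ribosomal protein genes was called, and their median was -0.24, which turned to 0.40 with scaling by T cell identity genes. Their share of counts was 10.2% ± 0.152 in culture and 11.4% ± 0.147 in spleen (SD). The 40 nuclear genes of the respiratory chain gave no call (median 0.32), and neither did the 13 mitochondrial mRNAs (median -0.08, or 0.56 with that scaling). In these 3 lists the number passing the adjusted p alone, up and down, was 7 and 43, 31 and 4, and 3 and 4.

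Glycolysis genes were higher in 7 of 24 cases and lower in 0, with a median of 1.51, and 14 were called with scaling by T cell identity genes. Aldoc, an aldolase, was at 139, 142, 136 and 142 CPM in culture and 1.19, 1.14 and 1.499 CPM in spleen and rose by 6.77 ± 0.072 (SE; adjusted p = 1.41e-26). Hk2, the inducible hexokinase, rose by 3.95 ± 0.083 (SE; adjusted p = 8.87e-16) and Slc16a3, the lactate exporter, by 4.55 ± 0.100 (SE; adjusted p = 3.33e-21). Ldha, which makes lactate, was at 1041 ± 66.5 CPM against 379 ± 8.61 CPM (SD), a log2 fold change of 1.46 ± 0.044 (SE; adjusted p = 1.23e-13). Slc2a1, the glucose transporter GLUT1, had 0.59 ± 0.047 (SE; adjusted p = 8.45e-11). These last genes were not called. Slc25a1, the mitochondrial citrate exporter, was the 1 gene called of 24 in the tricarboxylic acid cycle list (2.06 ± 0.060 (SE; adjusted p = 7.08e-16)).

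Citrate exported from mitochondria supplies acetyl-CoA for fatty acid and sterol synthesis. Acetyl-CoA carboxylase, the enzyme inhibited elsewhere in the study, turns it into malonyl-CoA for fatty acid synthesis. Acaca, its cytosolic form, was at 142, 135, 143 and 131 CPM in culture and 62.04, 62.8 and 60.8 CPM in spleen, a log2 fold change of 1.16 ± 0.039 (SE; adjusted p = 9.93e-18). Fasn, fatty acid synthase, had 1.15 ± 0.030 (SE; adjusted p = 8.94e-20), and neither was called. Acacb, the mitochondrial form, had few counts, at 2.55 ± 0.126 CPM in culture and 3.11 ± 0.232 CPM in spleen (SD), with a log2 fold change of -0.29 ± 0.16 (SE; adjusted p = 0.0981) that turned to 0.35 with scaling by T cell identity genes. Among the desaturases, Scd1, which makes oleate, was at 77.5, 72.4, 84.3 and 80.2 CPM against 1.43, 0.311 and 0.155 CPM and rose by 6.92 ± 0.29 (SE; adjusted p = 1.54e-06). Fads2, which desaturates polyunsaturated fatty acids, rose by 9.41 ± 0.13 (SE; adjusted p = 8.04e-25) and Scd2 by 3.35 ± 0.036 (SE; adjusted p = 1.59e-26). Fads1, another desaturase, had 1.41 ± 0.053 (SE; adjusted p = 7.95e-17) and was not called. In all, 4 of 19 fatty acid synthesis genes rose and 1 fell, Elovl7, an elongase (-2.11), with a median of 0.56. Fatty acid oxidation gave 1 call of 24, Cpt1c (4.54). Cpt1c had few counts, averaging 4.08 CPM in vehicle cultures and 0.169 CPM in spleen with all 14 libraries scaled together. Cpt1a, the carrier enzyme for fatty acid entry into mitochondria, had a log2 fold change of -0.13 ± 0.065 (SE; adjusted p = 0.0814) with overlapping groups, and 0.50 with scaling by T cell identity genes.

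Of 25 genes of cholesterol synthesis and uptake, 14 rose and 0 fell, and the median log2 fold change was 2.26. Hmgcs1, which makes its first committed intermediate, was at 856, 847, 801 and 809.5 CPM in culture and 59.8, 62.5 and 60.5 CPM in spleen and rose by 3.77 ± 0.037 (SE; adjusted p = 3.26e-27). Downstream, Sqle, squalene epoxidase, rose by 3.41 ± 0.047 (SE; adjusted p = 9.54e-25) and Cyp51, lanosterol demethylase, by 3.39 ± 0.049 (SE; adjusted p = 4.35e-23). The 11 members not called lay at several steps, from Mvk (1.67) and Mvd (1.64) of the mevalonate part to Dhcr7 (0.71) and Ebp (-0.0039) of the late sterol part. The sterol exporters went the other way. Abca1 was at 1.51, 1.08, 2.08 and 1.11 CPM in culture and 40.9, 34.5 and 35.4 CPM in spleen, and fell by 4.69 ± 0.13 (SE; adjusted p = 4.32e-15), and Abcg1 fell by 3.00 ± 0.048 (SE; adjusted p = 1.12e-23). These were the 2 members that fell of 23 genes of lipid uptake, storage and efflux, in which 6 rose, among them the fatty acid binding protein Fabp5 (3.31), the lipoprotein receptor Lrp8 (3.23) and the cholesterol acyltransferase Soat2 (3.19).

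Amino acid transporters moved both ways, with 4 of 15 higher, 1 lower and a median log2 fold change of 0.36. Slc7a5, the leucine transporter chain of LAT1, was at 545, 551, 507 and 548 CPM in culture and 75.9, 82.1 and 74.5 CPM in spleen and rose by 2.80 ± 0.040 (SE; adjusted p = 6.87e-24). Slc1a4, a carrier of serine and other neutral amino acids, rose by 4.20 ± 0.10 (SE; adjusted p = 1.80e-20). Slc43a1, a carrier of large neutral amino acids, fell by 2.20, and Slc7a6 (0.01) and Slc38a1 (-0.14) were not called. Psat1, of serine synthesis, and Mthfd2, of mitochondrial folate metabolism, rose by 2.97 ± 0.046 (SE; adjusted p = 1.67e-22) and 2.50 ± 0.068 (SE; adjusted p = 1.56e-11). In the amino acid stress list, which includes the gene of the factor ATF4, 10 of 18 rose and 0 fell, with a median of 3.18. Asns, asparagine synthetase, was at 152, 161, 136 and 143 CPM against 0.741, 0.311 and 0.362 CPM and rose by 8.27 ± 0.13 (SE; adjusted p = 1.75e-15). Chac1, which degrades glutathione, rose by 8.30 ± 0.30 (SE; adjusted p = 3.35e-12). Nupr1, a stress-induced nuclear protein, was at 15.4 ± 1.01 CPM in culture (SD) with no count in spleen, at least 301-fold higher. Atf4 itself had a log2 fold change of 1.73 and was not called. The unfolded protein response gave 2 calls of 22, Ero1l (3.01), an oxidase of the endoplasmic reticulum, and the factor Xbp1 (2.60), both higher.

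Of 19 genes tested in the hypoxia response list, 11 rose and 0 fell, and the median was 2.34. Vegfa, the vascular growth factor, was at 85.8, 87.7, 84.9 and 87.00 CPM in culture and 0.395, 0.259 and 0.723 CPM in spleen and rose by 7.54 ± 0.11 (SE; adjusted p = 1.19e-24). P4ha2, a collagen prolyl hydroxylase, rose by 8.32 ± 0.24 (SE; adjusted p = 1.95e-17) and Bnip3, a mitophagy receptor, by 4.68 ± 0.099 (SE; adjusted p = 2.64e-15). Vegfa and Ero1l stand in other lists here too, and Hif1a, the pathway's own factor and a member of the list, rose by 2.56.

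Interferon response genes were lower in culture in 17 of 28 cases and higher in 0, with a median of -2.82. Ifit3, an antiviral RNA-binding protein gene, was at 0.437, 0.305, 0.833 and 0.289 CPM in culture and 49.8, 46.2 and 47.3 CPM in spleen and fell by 6.69 ± 0.13 (SE; adjusted p = 3.85e-21). Oasl2, of the oligoadenylate synthetase family, fell by 6.13 ± 0.14 (SE; adjusted p = 9.51e-21) and Rtp4 by 5.72 ± 0.11 (SE; adjusted p = 3.24e-22). Irf7, the factor that amplifies type I interferon, fell from 129.8 ± 4.06 to 14.4 ± 1.01 CPM (SD). Several members did not follow. Isg20, an exonuclease gene, was at 37.9 ± 2.06 CPM in culture and 11.97 ± 0.575 CPM in spleen (SD), a log2 fold change of 1.66, and Mx1, Bst2, Oas3 and Stat2 had 0.67, 0.48, 0.10 and -0.04. With scaling by T cell identity genes, 15 of the list were called lower and 1, Isg20, higher.

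Markers of other cells were measured in the same libraries, since 1 side was an unsorted culture of spleen cells. B cell and plasma cell markers were lower in culture, not higher, with a summed level of 153 to 170 CPM against 975 to 1053 CPM, and 13 of 19 fell. Most of that sum was Ighm, the heavy chain of IgM, at 106, 105, 119 and 115 CPM in culture and 731, 711 and 739.5 CPM in spleen. Igkc, the kappa light chain, fell from 83.8 ± 2.795 to 0.671 ± 0.0827 CPM and Jchain, which joins secreted antibodies, from 29.05 to 0.446 CPM. The B cell receptor chain gene Cd79b averaged 3.18 CPM in culture and 20.3 CPM in spleen and was called lower. Cd79a and Ms4a1 averaged 0.479 and 0.148 CPM in culture and 1.802 and 0.743 CPM in spleen. The 24 macrophage, monocyte and neutrophil markers summed to 18.00 to 20.1 CPM in culture and 8.09 to 10.02 CPM in spleen. Of these, 10 had no count in any vehicle library, Vsig4, Elane and S100a8 among them, and 9 had none in any spleen library. Only 6 were tested, of which 3 were called higher in culture and 1 lower. Cd14, a monocyte marker, averaged 1.65 CPM in culture and had no count in spleen. Cd68, a lysosomal protein gene, made most of the sum in culture and rose by 2.26 ± 0.12 (SE; adjusted p = 4.80e-14).

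Cd4 was nearly absent, at 1.23, 1.15, 1.25 and 1.53 CPM in culture and 0.7903, 0.208 and 0.103 CPM in spleen, and Foxp3, the factor of regulatory T cells, was at 0.455 ± 0.0827 and 2.03 ± 0.416 CPM (SD). The CD4 and regulatory T cell list still summed to 1259 to 1283 CPM in culture against 98.1 to 101 CPM, through Il2ra, Ctla4 and Zbtb7b. Il2ra and Ctla4 are also induced in activated CD8+ cells. Zbtb7b, the factor that directs thymocytes to the CD4 lineage, was at 119, 118, 109 and 117 CPM in culture and 4.495, 2.49 and 3.67 CPM in spleen and rose by 5.02 ± 0.094 (SE; adjusted p = 5.48e-16). Genes of gamma delta T cells were higher in culture too. Trdc, the delta chain constant region, was at 127, 129.6, 136 and 132 CPM against 8.595, 9.39 and 10.2 CPM and Sox13, a gamma delta lineage factor, at 10.8 ± 0.321 against 0.0517 ± 0.0517 CPM (SD). Ncr1, the defining receptor of NK cells, averaged 0.341 CPM in culture and 0.0846 CPM in spleen and was too low to test. Of the 13 tested in the NK and gamma delta list, 9 rose and 2 fell.

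In the mast cell and basophil list 4 of 5 tested members rose. Kit, the stem cell factor receptor, was at 37.9 ± 2.51 against 3.26 ± 0.468 CPM (SD). The others were Alox5, a leukotriene enzyme, with means of 5.45 and 0.0346 CPM, and the granule proteases Cpa3 (1.65 and 0.101 CPM) and Mcpt8 (0.867 and 0 CPM). The mast cell proteases Mcpt4 and Tpsab1 had no count in any of the 7 libraries. Dendritic cell markers moved both ways, 1 of 11 higher, Batf3, and 3 lower, Ccr9 among them. Both of these genes also stand in T cell lists described above. Of 3 endothelial markers tested, 1 was higher and 1, Pecam1, lower. Stromal markers were low, summing to 10.1 to 11.1 CPM in culture and 2.33 to 17.2 CPM in spleen. Of the 5 stromal markers tested 4 were called higher in culture, Col6a1, Col6a2, Lum and Pdgfrb, among which Col6a2, a collagen VI chain, averaged 4.72 against 0.169 CPM. Spleen library 1 was the high one, with Col3a1 at 4.05, 0.415 and 0.0517 CPM in spleen libraries 1 to 3. Without that library 2014 genes were called higher and 1079 lower, and the counts for mitosis, naive factors, homing, interferon response and cholesterol genes were the same. The part of other cells in the differences above was not tested beyond these values.

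**Figure D5:**
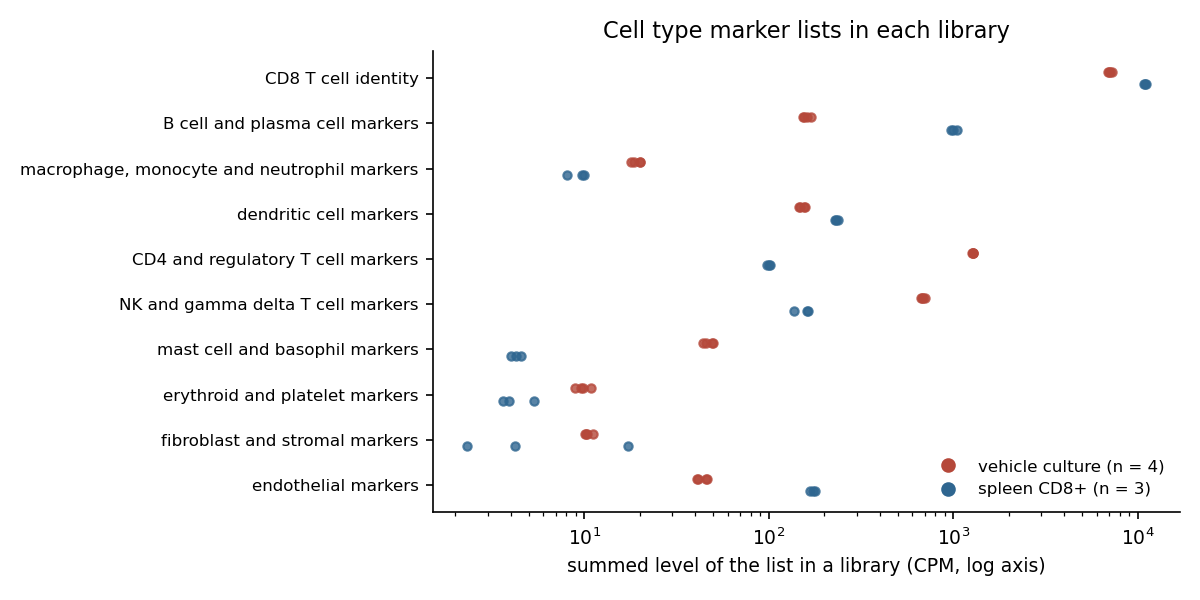
Summed level (CPM, log x axis) of each cell type marker list in every library, vehicle cultures above and spleen below in each row. The B cell, dendritic, endothelial and T cell identity sums are lower in culture, the CD4, NK and gamma delta, mast and myeloid sums are higher, and 1 spleen library stands apart in the stromal row. Ccr9 alone averaged 150 CPM of the dendritic sum of 233 CPM in spleen, and 0.395 of 151.5 CPM in culture. Pecam1 made most of the endothelial sums, at 171.6 of 173.1 CPM in spleen and 36.3 of 43.5 CPM in culture.

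Across all genes, the naming rule also took those with the highest and lowest log2 fold changes. Besides granzymes and Cdkn1a, the highest were Lama5, a laminin chain, at 143, 137, 124 and 130 CPM in culture and 0.0988, 0 and 0 CPM in spleen, Serpine2, a protease inhibitor (10.97), and Emilin2, an extracellular matrix protein (10.81). The lowest, besides Il6ra and Ccr9, were Kcna2, a potassium channel (-11.06), Slc16a5, a monocarboxylate transporter (-8.39), Pde2a, a cyclic nucleotide phosphodiesterase (-8.16), Tmie (-7.79), Dtx1, a Notch pathway ubiquitin ligase (-7.75), and Vipr1, the receptor for vasoactive intestinal peptide (-7.57). Vipr1 stood at 0.754, 0.373, 0.708 and 0.743 CPM in culture and 119, 126 and 119 CPM in spleen.

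The other 7 libraries place these levels, although they share the 2 groups' experiments and no test was made. With all 14 libraries scaled together, the tumour libraries lay between spleen and culture for some of these genes. The tumour libraries also held stromal mRNA, with Col3a1 at 3249 CPM, Fn1 at 2481 CPM and Col1a2 at 2229 CPM on average against 1.51, 1.27 and 1.06 CPM in spleen, and its part in their levels was not tested. Gzmb averaged 16.7 CPM in spleen, 722 in tumour, 1949 in ND-646 cultures and 3534 in vehicle cultures. Tcf7 averaged 1500 CPM in spleen, 148 in tumour, 68.5 in ND-646 and 36.8 in vehicle cultures. Hmgcs1 averaged 61.3, 278, 404 and 828 CPM in that order. Other genes were not ordered so. Pdcd1 averaged 511 CPM in tumour against 92.3 in vehicle cultures, Ifng 57.6 against 13.9 CPM and Tox 42.5 against 7.63 CPM. Ccr7 stayed at 333 CPM in tumour, near the 416 CPM of spleen. Trdc was at 3.29 and 9.46 CPM in the sorted cells and 154 and 131 CPM in the cultures. Ifit3, at 0.621 and 0.465 CPM in both kinds of culture, was at 29.96 CPM in tumour.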

How the data were processed

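RNA was poly(A)-selected, made into strand-specific libraries and sequenced as paired reads of 150 bases, as the labels' protocols state. The authors deposited 1 table of estimated counts per gene symbol for each experiment, with the same 55291 symbols, and the 2 tables were joined on the symbol. STAR, Salmon and DESeq2 appear in the submitters' processing notes, with no version or role. Genome build, annotation and strand setting were not given in the sources used here. The estimated counts, as deposited, were treated as unnormalized, since library totals differ. About 9.16% and 9.15% of values were not whole (tolerance 1e-06) and all were rounded.

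Groups came from the sample titles. Libraries held 23.463 to 29.048 M counts (vehicle) and 19.8 to 20.8 M (spleen). A count of 0 allows up to 3 counts, which in 1 library equal 0.103 to 0.151 CPM, counting error only. Over a whole group that floor is 0.0291 CPM for vehicle and 0.0510 CPM for spleen. edgeR 4.0.16 in R 4.3.3 was used with filterByExpr, TMM scaling and the quasi-likelihood test with robust dispersions, adjusted by Benjamini-Hochberg, on the 7 libraries only. A call needs an adjusted p under 0.05 and an absolute log2 fold change of at least 2. The fold change is culture over spleen, and its SE derives from the F statistic. CPM values were computed from the deposited counts after TMM scaling. Shares of counts were compared by exact permutation tests (SciPy), with 35 splits. The script was tested on simulated data.

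The 47 gene lists hold 975 genes, of which 955 matched by symbol and 18 by a RefSeq synonym. The comparison, lists and naming rule were chosen with earlier results of these data known. The rule took 44 anchor genes, the 8 called genes with the highest and the 8 with the lowest log2 fold change, of at least 50 CPM in the higher group and with no overlap between groups, and up to 3 called members of each list in each direction with at least 10 CPM. Predicted genes, receptor and immunoglobulin segments, histones and pseudogenes were left out of the second part. Other members named were chosen after their values were seen, and some genes are not reported here. Same-numbered libraries of the groups did not deviate together (correlations 0.037, -0.017 and -0.024). Alternatives were other scalings, DESeq2 1.42.0, limma-voom (limma 3.58.1), other filters and fold minimums, all 14 libraries in 1 fit, the replicate number as a block and leaving out each library. Promoters are from RefSeq for GRCm38.p6, not the authors' build.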

Additional observations from a re-analysis of the deposited data

Results flagged for a closer look

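In the 4 vehicle libraries, 174 measures were checked for a library far from the others, and 7 were flagged, where chance flags about 1 in 20. The value in parentheses is the gap of the extreme library to its nearest neighbour as a share of the range, which passed the limit of Dixon's test. Prdm1 (0.885) was low in library 2, at 20.1 CPM against 24.2, 24.5 and 24.02 CPM. Vipr1 (0.880) was low there too, at 0.373 CPM against 0.754, 0.708 and 0.743 CPM, and Fabp5 (0.835) was high there, at 47.6 CPM against 43.0, 42.1 and 42.9 CPM. In library 3, E2f7 (0.864) was high at 24.2 CPM against 22.7, 22.9 and 22.7 CPM, and Slc7a5 (0.861) was low at 507 CPM against 545, 551 and 548 CPM. In library 1, Xcl1 (0.872) was low at 1.03 CPM against 1.42, 1.46 and 1.40 CPM. The 20 most abundant genes (0.860) took 9.24% of counts in library 1 and 9.41%, 9.43% and 9.41% in the others. Each of these gaps is small beside the difference from spleen for the genes called. The 3 spleen libraries are too few for this check.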

How the results depend on the processing

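The counts of 1902 genes higher and 1020 lower moved by more than 1.5 times with the fold minimum (1263 and 564 at 8-fold, 3191 and 2414 at 2-fold). Genes called lower were 1961 with glmTreat against 2-fold and 1878 with no low-count filter. Leaving out each library gave 1795 to 2014 higher and 988 to 1079 lower. The replicate block gave 1906 and 1050 and changed the call of 0 of 166 named genes, although the numbers pair no libraries, and DESeq2's Wald test gave 1915 and 1019 and also changed 0. Scaling by T cell identity genes, which are themselves lower in culture by the main scaling, ended 14 calls among the named genes (Btg1, Cd5, Cd6, Cd8b1, Dgka, Elovl7, Eomes, Ifngr2, Il27ra, Pecam1, Peli1, Socs3, Tgfbr3 and Tnfsf14, all lower), added Irf8 and Ldha as higher and reversed the log2 fold changes of Acacb (0.35) and Cpt1a (0.50), neither called. It kept 88.6% of the 2922 calls in their direction. The median log2 fold change by quartile of transcript length ran from -0.065 to 0.102 and by quartile of GC content from -0.036 to 0.104. The share of genes called higher rose from 10.6% in the shortest quartile to 14.2% in the longest. It also rose from 10.7% in the lowest GC quartile to 16.4% in the highest. The share called lower had no such order, at 5.39% to 7.69% by length and 5.33% to 7.96% by GC. Depth limits calls near 0.1 CPM, and folds against groups at 0 are bounds.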

Other observations

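Xist, the RNA of the inactive X chromosome, was at 2323, 2027, 2358 and 2140 CPM in the vehicle libraries and 679, 610.5 and 638 CPM in the spleen libraries. Its log2 fold change of 1.78 lay just under the call. Tsix, its antisense partner, moved with it (1.71), and the Y-linked genes Ddx3y, Kdm5d, Eif2s3y and Uty were at or under 0.051 CPM on average in both groups. All 7 libraries therefore read as female. Reads of Xist and Tsix overlap on the genome, and the use of strand in counting is not given in the sources used here.

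Foxj1, a factor of quiescent T cells, was the 1 quiescence gene called higher, at 1.71 CPM in culture against 0.0856 CPM in spleen. Among histone genes, whose mRNAs lack a poly(A) tail, H2ac20 and H3c15 were called lower, at 0.103 and 0.0208 CPM in culture against 2.74 and 0.952 CPM in spleen, in libraries where mitosis genes were higher. They were the only calls among 11 genes tested for histone and other nuclear RNA. With all 14 libraries scaled together, H2bc4 and H1f2 averaged 2.85 and 11.35 CPM in culture against 0.938 and 8.64 CPM in spleen, not called. Rn7sk, a nuclear RNA made without a tail, averaged 8.67 and 9.28 CPM.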
